A study of Mus musculus with 24 samples.

Results

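A set of 9 genes that mark smooth muscle cells and pericytes of brain blood vessels were followed through bulk RNA sequencing of the medial prefrontal cortex (mPFC) and anterior cingulate cortex (ACC) of C57BL/6 mice. They were 9 of 33364 genes in each of the 4 count tables: 5 smooth muscle genes (Acta2, Tagln, Myh11, Des and Cnn1) and 4 pericyte genes (Pdgfrb, Rgs5, Vtn and Notch3), found by matching each symbol to 1 Ensembl identifier. Notch3 is used by both cell types and was kept with the pericyte genes. The mice were 3 months old, and tissue was punched 2 weeks after spared nerve injury (SNI), in which branches of the sciatic nerve are cut while another is left intact, or after a sham operation. The 24 libraries formed 8 groups of 3, namely female and male, sham and SNI, mPFC and ACC. Each library was a pool of RNA from 4 to 5 animals, so the errors below are between pools. Both operations were done under isoflurane, and the study describes no transgene and no other drug treatment of the mice. Because whole tissue was sequenced, fewer vessel wall cells and less RNA per cell cannot be told apart in any value given here.

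Arteries and arterioles are wrapped in smooth muscle cells that contract, and capillaries in pericytes that adhere to the endothelium and help to keep the blood-brain barrier closed. Contraction depends on smooth muscle forms of actin and myosin, whose genes are switched on by serum response factor with its partner myocardin at DNA sites called CArG boxes. Endothelial cells recruit and hold both cell types through platelet-derived growth factor B, which binds Pdgfrb, and through Jagged ligands, which bind Notch3 and act on genes through the DNA-binding protein RBPJ.

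Promoter sequence is shown for Acta2, the smooth muscle actin whose level the study also measured by qPCR, and for Rgs5, the gene with the most regular difference between regions below. Promoter windows from RefSeq (build GRCm38.p6) were held for 6 of the 9 genes: Acta2, Des, Cnn1, Rgs5, Vtn and Notch3. In the 250 bases upstream of the start, searched on both strands, an exact CArG box was found in 482 of 32851 windows (1.47%), and a CArG box with at most 1 mismatch in 6117 (18.6%). TGGGAA, the core that RBPJ binds, was found in 7094 (21.6%). None of the 6 genes had an exact CArG box in this window. Acta2 had 2 boxes with 1 mismatch, starting 84 and 34 bases before the RefSeq start, and a TGGGAA that overlapped the second. The gene spans given below are from GENCODE, whose Acta2 start lies farther upstream, so these Acta2 motifs lie inside its span. Vtn had a TGGGAA, and Des, Cnn1, Rgs5 and Notch3 had none of these motifs. Myl9, the myosin light chain of smooth muscle, had an exact box and is shown for comparison. Capitals mark the box, and each sequence is on the strand of the gene.
Acta2, chr19:34255438-34255467, minus strand: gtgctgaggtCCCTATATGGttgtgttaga
Acta2, chr19:34255388-34255417, minus strand: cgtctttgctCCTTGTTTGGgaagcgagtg
Myl9, chr2:156775293-156775322, plus strand: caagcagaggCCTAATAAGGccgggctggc
Rgs5, chr1:169655251-169655500, plus strand, with no capitals because neither motif was found: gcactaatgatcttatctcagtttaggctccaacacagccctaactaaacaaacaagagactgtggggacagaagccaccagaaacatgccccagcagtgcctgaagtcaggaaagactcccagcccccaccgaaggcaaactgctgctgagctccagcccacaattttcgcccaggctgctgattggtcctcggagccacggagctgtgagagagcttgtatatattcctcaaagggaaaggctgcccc

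The primers of that qPCR are shown because they mark the stretch of Acta2 mRNA the study followed. Both matched exactly in no gene other than Acta2, at bases 440 to 460 and 521 to 541 of its transcript of 2035 bases, and enclose 102 bases.
Acta2 forward primer: gtcccagacatcagggagtaa
Acta2 reverse primer: tcggatacttcagcgtcagga

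In GRCm38, Acta2 lies at chr19:34241090-34255590, Tagln at chr9:45929619-45936058, Myh11 at chr16:14194535-14291372 and Notch3 at chr17:32120820-32166852, all on the minus strand. Des (chr1:75360329-75368579), Cnn1 (chr9:22099216-22109630), Pdgfrb (chr18:61045150-61085061), Rgs5 (chr1:169655501-169695813) and Vtn (chr11:78499091-78502324) lie on the plus strand. No 75-base stretch of any of the 9 genes was shared with another gene on the same strand. On the other strand, 53.3% of the Tagln stretches lay in exons of Pcsk7 and Gm48529, 4.23% of those of Notch3 in Gm17276 and 3.94% of those of Des in Gm15179. Whether counting used strand was not stated, so Tagln reads could be affected. Tagln had 156 to 409 reads per library, against 17 to 46 for Gm48529 and 351 to 630 for Pcsk7.

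The libraries held 23853845 to 32864391 counted reads (median 26727282), at which 3 reads amount to 0.0907 to 0.126 CPM, that is, counts scaled to library size. Some libraries stood apart in RNA of other tissues or in base composition. Female sham ACC 1 had a summed choroid plexus level of 984 CPM (median of the 24 libraries 6.44) and the highest fibroblast sum, 349 CPM (median 180). A male SNI mPFC pool reached a choroid plexus sum of 84.1 CPM. Male SNI ACC 1 had a hepatocyte sum of 45.5 CPM (median 0.239) and the male sham ACC pools ran up to 15.1 CPM, while female SNI mPFC 1 had an oligodendrocyte sum of 1105 CPM (median 3120). The slope of log2 CPM over GC content ran from -0.157 per 10% in female sham mPFC 3 to 0.200 in male sham ACC 3. The summed level of 8 skeletal muscle markers was 7.25 to 12.5 CPM. Acta1 alone read 5.05 to 9.22 CPM, while Ckm had at most 4 reads per library and Tnnt3 at most 2.

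All 9 genes were read in every library. Per kilobase of exon, the pericyte genes Vtn (vitronectin, an extracellular matrix protein) and Rgs5 (a brake on G-protein signalling) were the most abundant, with means of 27.8 and 21.1 CPM per kb over 24 libraries. Acta2 (smooth muscle alpha actin) followed at 7.60, Tagln (the actin-binding protein transgelin) at 5.24 and Pdgfrb (the platelet-derived growth factor receptor) at 5.11 CPM per kb. Myh11 (smooth muscle myosin heavy chain) reached 3.00 and Notch3 (a receptor for Jagged) 2.90 CPM per kb. Des (desmin, an intermediate filament) and Cnn1 (calponin, an actin-binding protein that damps contraction) were lowest, at 0.912 and 0.471 CPM per kb. The ranges of Vtn and Rgs5 met, at 22.6 to 36.8 and 16.4 to 26.0 CPM per kb, as did those of Acta2 and Tagln, at 4.42 to 10.9 and 2.87 to 8.20. Sorted by group mean, neighbouring groups overlapped in 7 of 7 steps for 8 of the genes and in 5 of 7 for Vtn.

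**Figure D1:**
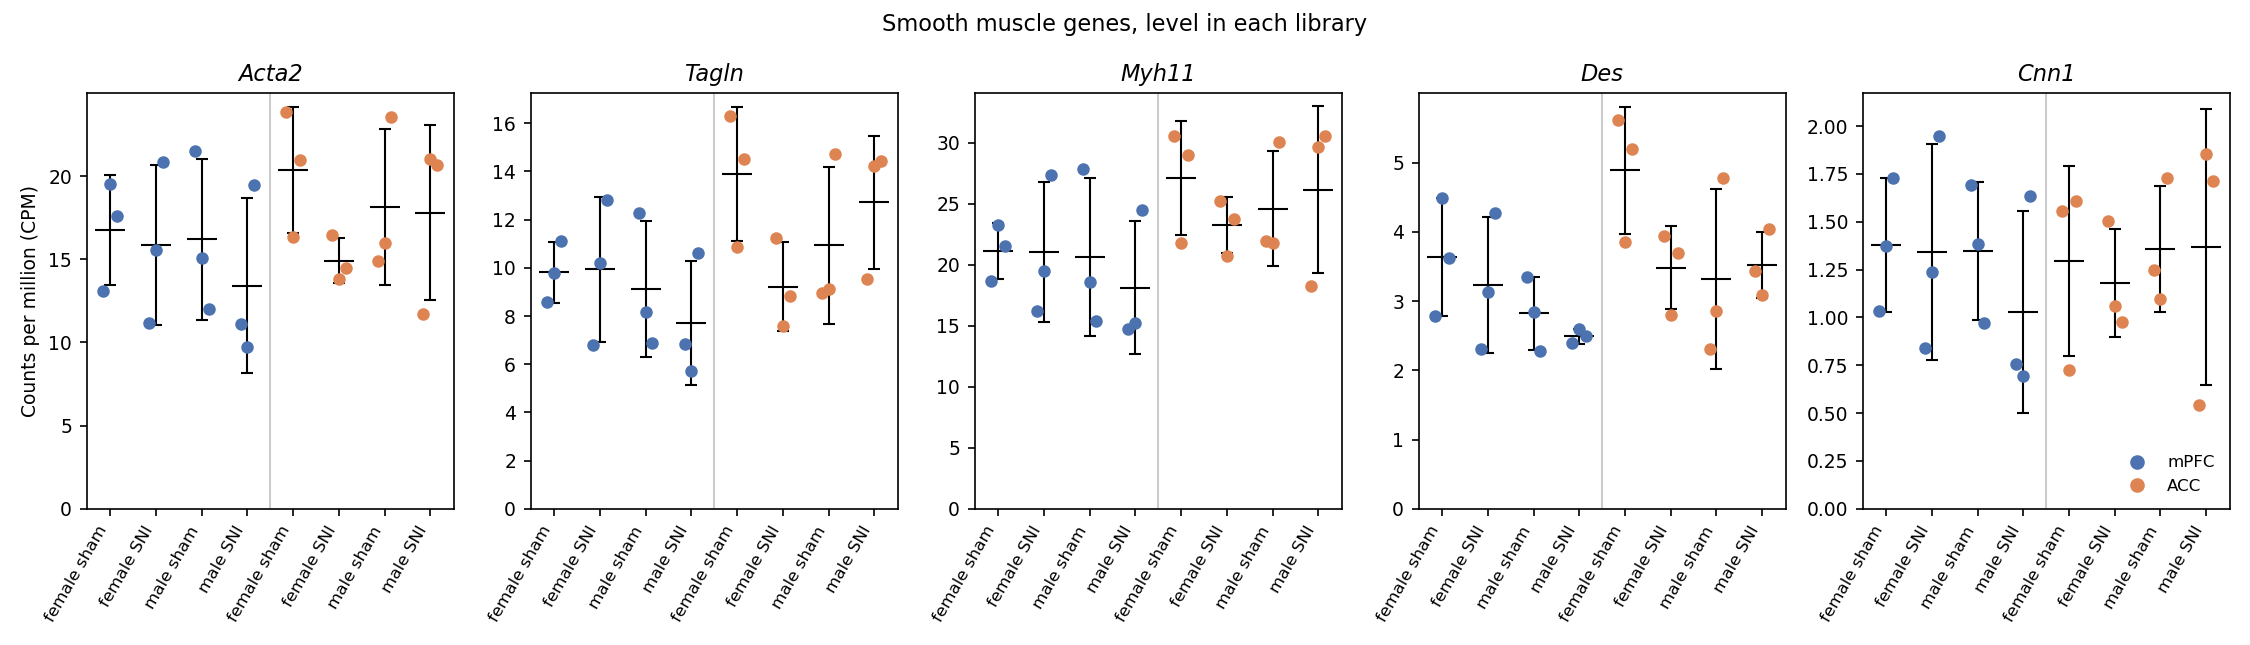
Level of each smooth muscle gene (CPM) in each library, by group; points are pools, black bars the mean ± SD of 3 pools, blue mPFC and orange ACC. Pools of a single group spread widely, as in Acta2 of male SNI mPFC, which ran from 9.70 to 19.4 CPM.

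The smooth muscle genes varied far more between pools of the same group than the pericyte genes did. The summed level of the 5 smooth muscle genes ran from 33.9 CPM in male SNI mPFC 2 to 77.8 CPM in female sham ACC 1, and within a group the highest pool exceeded the lowest by 1.27-fold to 1.80-fold. The summed level of the 4 pericyte genes ran from 169 to 249 CPM, with 1.01-fold to 1.16-fold between pools of a group. On the log2 CPM scale the SD within groups was 0.385 for Acta2 and 0.368 for Tagln, and 97.5% and 96.9% of the 14712 genes with a mean of at least 1 CPM had a smaller SD. It was 0.327 for Myh11, 0.323 for Des and 0.550 for Cnn1, the gene with the fewest reads. Rgs5 (0.098), Vtn (0.125), Pdgfrb (0.126) and Notch3 (0.130) lay near the median over all genes of 0.110. No test was made of these spreads, which are descriptions.

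**Figure D2:**
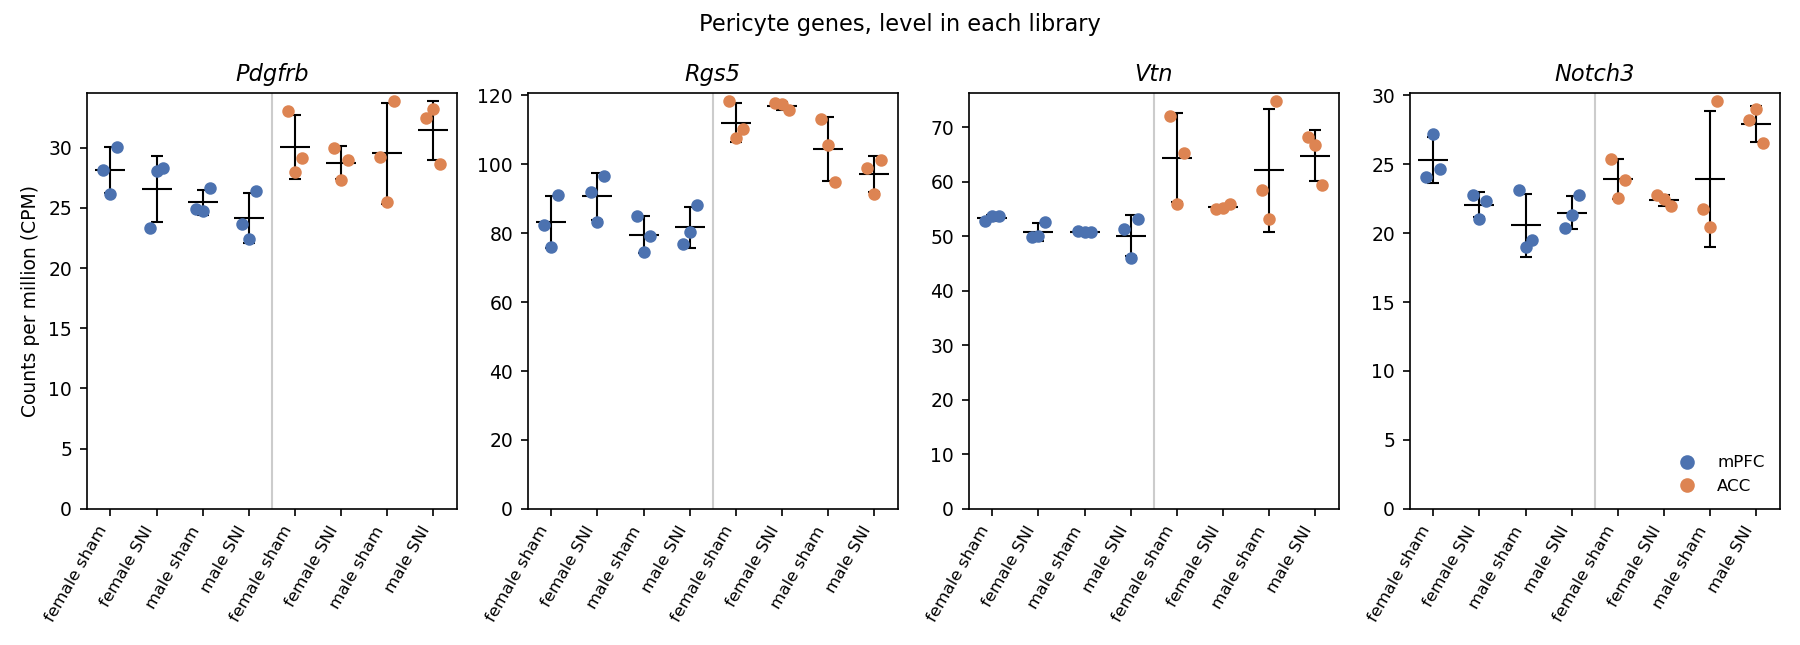
Level of each pericyte gene (CPM) in each library, drawn as for the smooth muscle genes; bars are the mean ± SD of 3 pools. Rgs5 ran from 74.5 to 118 CPM, with every ACC group mean above every mPFC group mean.

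The spread of the smooth muscle genes was shared among them. After each group mean was subtracted, Acta2 and Myh11 correlated at r = 0.97 across the 24 libraries, and the 10 pairs of smooth muscle genes ran from 0.55 to 0.97 (median 0.90). Des was the loosest of the 5, with r = 0.69 to Acta2. The 20 pairs of 1 smooth muscle and 1 pericyte gene had a median of 0.42, from -0.10 to 0.60, and the 6 pericyte pairs a median of 0.27, from -0.10 to 0.79. Pdgfrb and Vtn (0.79) and Vtn and Notch3 (0.75) moved together, whereas Rgs5 did so with none of the other 3. These are descriptions over 24 libraries that share depth, dissection and base composition. Rgs5 has a GC content of 41.1% and Notch3 one of 59.6%. Once a trend over GC content had been taken out of each library, Rgs5 and Vtn went from r = -0.09 to 0.60 and the pericyte median to 0.53, while the smooth muscle median was 0.90 as before. That correction was added after the data had been seen. Without female sham ACC 1 the medians of the smooth muscle and pericyte pairs were 0.90 and 0.23.

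**Figure D3:**
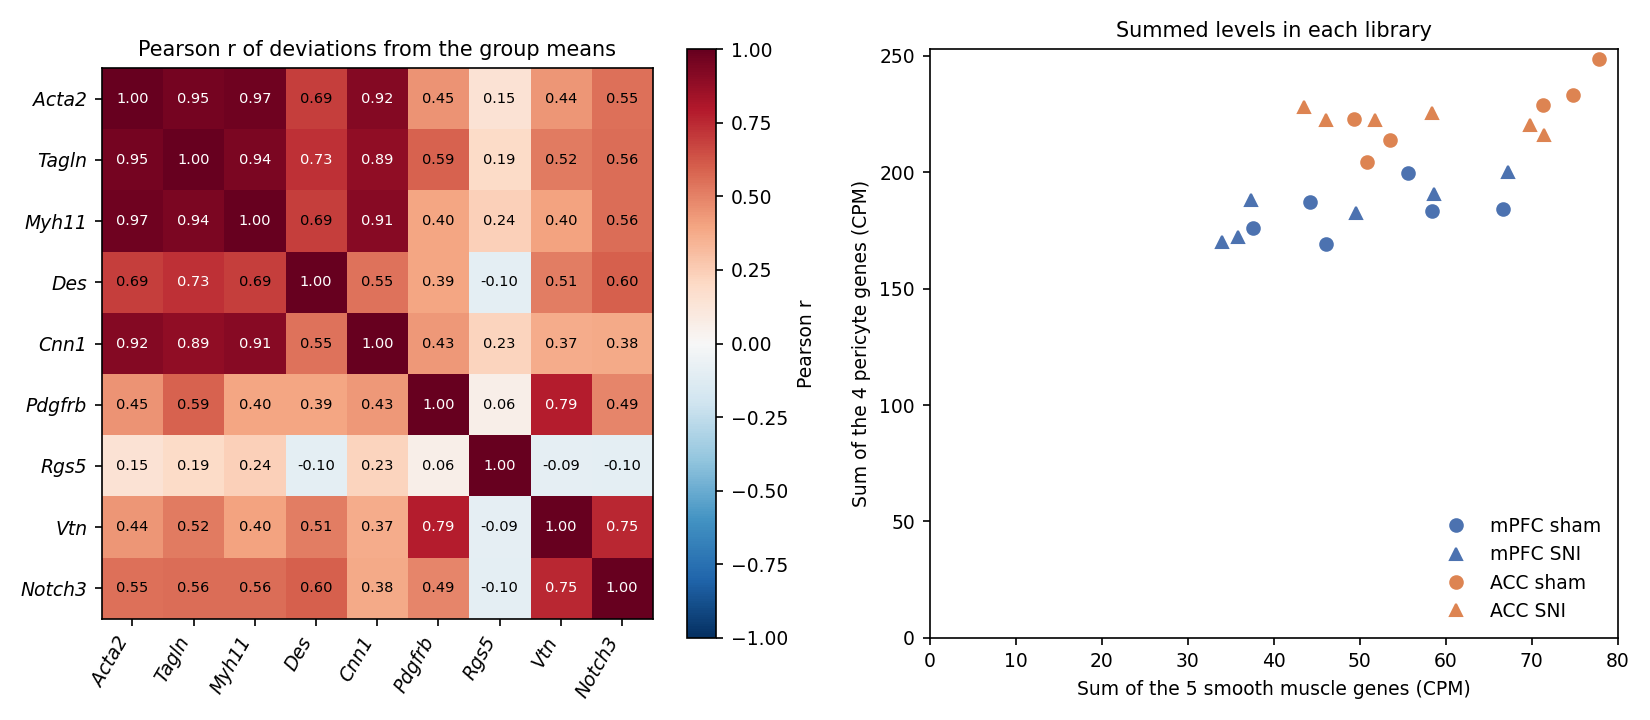
Left, Pearson r between the 9 genes of their deviations from the group means (log2 CPM) over 24 libraries; right, summed smooth muscle level against summed pericyte level (CPM) per library, circles sham and triangles SNI, blue mPFC and orange ACC. Acta2, Tagln, Myh11 and Cnn1 form the block of high r, and the pericyte sums of mPFC and ACC do not overlap while the smooth muscle sums do. The pericyte sum weighs most on Rgs5 and Vtn.

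Among 14711 other genes, the 5 most like Acta2 were Myh11 (r = 0.97), Tagln (0.95), Mylk (0.94), Cnn1 (0.92) and Myl9 (0.89). Mylk encodes the kinase that starts contraction by phosphorylating the light chain made from Myl9. Des ranked 44 and Notch3 191. The 5 most like Rgs5 were Ggh (0.90), Alcam (0.85), Pde5a (0.85), Itm2a (0.84) and Mtpap (0.84), of which Itm2a is an endothelial marker and Pde5a a phosphodiesterase that smooth muscle and pericytes use. After the GC correction these read 0.72, 0.42, 0.62, 0.69 and 0.49. The smooth muscle sum went with the sum of 16 other contractile genes (r = 0.92), less closely with fibroblast genes (0.66) and other pericyte genes (0.63), and against neuronal genes (-0.48). For the pericyte sum, r was 0.79 with fibroblast, 0.75 with other pericyte, 0.72 with endothelial and 0.70 with perivascular macrophage genes.

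The first comparison asked how the vessel wall genes differ between the regions in animals of the same sex and operation. Rgs5 was lower in the mPFC in all 4 such comparisons, and none of the other 8 genes passed the test in all 4. In female sham pools Rgs5 read 82.3, 76.1 and 91.1 CPM in the mPFC and 118, 108 and 110 CPM in the ACC. In male sham pools it read 85.2, 74.5 and 79.2 against 113, 106 and 94.8 CPM. Every mPFC pool lay below every ACC pool in both. The SNI pools were likewise apart, with 92.1, 83.2 and 96.8 against 118, 117 and 116 CPM in females, and 76.8, 80.2 and 88.3 against 98.9, 91.4 and 101 CPM in males. The log2 difference, mPFC minus ACC, was -0.42 ± 0.07 (SE) in female sham, -0.38 ± 0.08 in male sham, -0.35 ± 0.05 in female SNI and -0.25 ± 0.06 in male SNI pools. The adjusted p-values of edgeR's quasi-likelihood test were 0.00351, 0.0108, 0.000541 and 0.0166. Rgs5 passed in 24 of 24 fits that left out a library and in 32 of 32 other fits, and read -0.23, -0.40, -0.36 and -0.32 after the GC correction.

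Vtn, the other abundant pericyte gene, also had every mPFC pool below every ACC pool in each of the 4 comparisons. In female sham pools it read 52.8, 53.7 and 53.7 CPM in the mPFC and 72.1, 55.9 and 65.3 CPM in the ACC. In male sham pools it read 51.0, 50.8 and 50.7 against 58.5, 53.1 and 74.8 CPM. The ACC pools were the scattered ones, and the lowest of them came close to the mPFC. The SNI pools read 49.8, 50.0 and 52.6 against 55.1, 55.2 and 55.9 CPM in females, and 51.3, 46.0 and 53.2 against 68.2, 66.7 and 59.4 CPM in males. Vtn passed the test in female sham (-0.26 ± 0.08, adjusted p = 0.0437) and male SNI pools (-0.37 ± 0.07, 0.00331). In male sham and female SNI pools the log2 differences were -0.28 ± 0.11 and -0.11 ± 0.05, with adjusted p-values of 0.137 and 0.128.

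**Figure D4:**
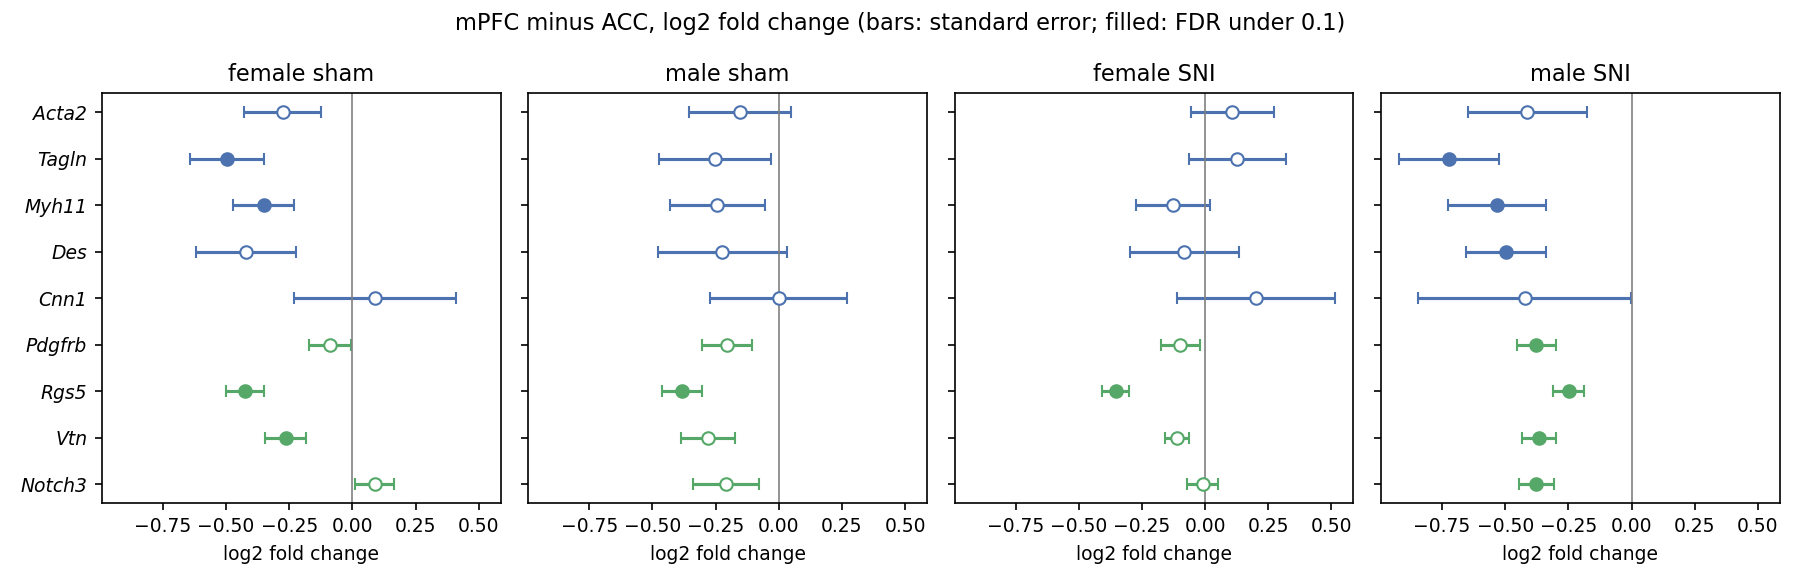
Log2 difference, mPFC minus ACC, ± SE for each gene in the 4 comparisons; blue smooth muscle and green pericyte genes, filled where the adjusted p was under 0.1. Rgs5 is filled in every panel, at -0.42 to -0.25.

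In female sham pools 4 of the 9 genes passed, all lower in the mPFC, in a comparison in which 28.5% of 16746 genes passed and 14.5% were lower. The pools did not overlap for Rgs5 and Vtn, and mPFC pools below ACC pools were found in 20% of genes. The other 2 were contractile genes. Tagln read 8.57, 9.77 and 11.1 CPM in the mPFC and 16.3, 10.9 and 14.5 CPM in the ACC (-0.50 ± 0.15, adjusted p = 0.0356). Myh11 read 18.7, 23.2 and 21.6 against 30.5, 21.8 and 29.0 CPM (-0.35 ± 0.12, 0.0625). Both overlapped, since the highest mPFC pool passed the lowest ACC pool. Without female sham ACC 1, the library with choroid plexus RNA, Tagln read -0.36 (adjusted p = 0.111), Myh11 -0.25 (0.189) and Vtn -0.17 (0.177), and Rgs5 was the 1 gene left. Rgs5 was also the 1 gene left without female sham mPFC 1 or female sham ACC 3, and Rgs5 and Myh11 were left without female sham mPFC 2. Acta2 (-0.28 ± 0.15), Des (-0.42 ± 0.20), Pdgfrb (-0.09 ± 0.08), Notch3 (0.09 ± 0.08) and Cnn1 (0.09 ± 0.32) did not pass.

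In male sham pools Rgs5 alone passed, 1 of 9 genes against 14.2% of 16831 overall and 6.7% that were lower. Rgs5 and Vtn again had pools that did not overlap, as had 13.9% of all genes in that direction. Acta2, Tagln, Myh11 and Des stood at -0.15 to -0.25, Cnn1 at 0.00, Pdgfrb at -0.20 ± 0.10 and Notch3 at -0.21 ± 0.13. Leaving out male sham ACC 2 added Pdgfrb (-0.31, adjusted p = 0.0920) and Vtn (-0.39, 0.0509), and leaving out male sham mPFC 1 added Myh11 (-0.53, 0.0785). Without male sham ACC 3, the library with the steepest GC trend, the smooth muscle genes stood at 0.08 (Acta2), 0.02 (Tagln), -0.07 (Myh11), 0.14 (Des) and 0.21 (Cnn1). The same fit gave Pdgfrb -0.10, Vtn -0.13 and Notch3 -0.03, and Rgs5 still passed (-0.45, adjusted p = 0.000124). In female SNI pools Rgs5 was again the 1 gene that passed, where 27.6% of 16930 genes did and 13.9% were lower. The pools of Rgs5 and Vtn did not overlap, as in 20.3% of genes in that direction. The smooth muscle genes stood on both sides of 0 there, from -0.13 ± 0.15 for Myh11 to 0.20 ± 0.31 for Cnn1. Acta2 was 0.11 ± 0.16 and passed as higher in the mPFC (0.30, adjusted p = 0.0750) without female SNI mPFC 1, the library low in oligodendrocyte RNA, where Tagln read 0.33, Cnn1 0.44, Des 0.10 and Myh11 0.02. Without female SNI mPFC 3, Myh11 passed as lower (-0.36, 0.0414).

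In male SNI pools 7 of the 9 genes passed, all lower in the mPFC, where 21% of 16872 genes passed and 10.6% were lower. All 4 pericyte genes were among them. Pdgfrb read 23.7, 22.4 and 26.4 CPM in the mPFC against 32.5, 33.2 and 28.6 CPM in the ACC (-0.38 ± 0.08, adjusted p = 0.00566). Notch3 read 20.4, 21.3 and 22.7 against 28.2, 29.0 and 26.5 CPM (-0.38 ± 0.07, 0.00244). Neither gene overlapped between regions, nor did Rgs5, Vtn or Des, while mPFC pools lay below ACC pools in 16.6% of genes. The contractile genes Tagln (-0.72 ± 0.20, 0.0261), Des (-0.50 ± 0.16, 0.0509) and Myh11 (-0.53 ± 0.19, 0.0848) passed too. Tagln read 6.83, 5.71 and 10.6 against 9.53, 14.2 and 14.4 CPM, with the third mPFC pool above the first ACC pool. Acta2 (-0.41 ± 0.24) and Cnn1 (-0.42 ± 0.42) did not pass. Without male SNI mPFC 1 the pericyte genes were the 4 that passed, and Tagln read -0.64 (0.120), Des -0.46 (0.138) and Myh11 -0.40 (0.300). Of the 6 fits that left out a library, Des passed in 1, that without male SNI ACC 2, and Myh11 in 2, those without male SNI mPFC 3 or male SNI ACC 1. Without male SNI ACC 1, the library with hepatocyte RNA, Acta2 passed (-0.65, 0.0742), as it did without male SNI mPFC 3 (-0.77, 0.0309), and Vtn kept its call (-0.34, 0.0175).

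Across all 12 mPFC and 12 ACC libraries, 10 mPFC libraries had less Rgs5 than any ACC library and 10 ACC libraries more than any mPFC library. For Vtn these counts were 9 and 11, and for Cnn1 they were 0 and 0. The pericyte sum was 169 to 200 CPM in the mPFC and 205 to 249 CPM in the ACC, with no overlap. Markers of other cells, in vessels and outside them, also differed between the regions. The shares of all genes that were lower in the mPFC were 14.5%, 6.7%, 13.9% and 10.6%, in the order of comparisons below. The sum of 19 endothelial genes was 506 to 640 CPM in the mPFC and 610 to 710 CPM in the ACC. Endothelial genes were lower in the mPFC for 8, 8, 6 and 14 of 19 in female sham, male sham, female SNI and male SNI pools, with none higher. Abcb1a, the drug pump of the blood-brain barrier, passed in each (-0.38, -0.40, -0.27 and -0.45). Of 14 fibroblast genes, 12, 10, 0 and 10 were lower, and 2 were higher in female SNI pools, namely Slc6a13 (0.54) and Col1a2 (0.29). The fibroblast sums of the ACC groups were 212 to 349 CPM in female sham and 183 to 189 CPM in female SNI pools, and those of the mPFC groups 136 to 176 and 149 to 223 CPM. Outside vessels, oligodendrocyte genes were lower in the mPFC for 0, 0, 8 and 7 of 8, astrocyte genes for 3, 1, 3 and 4 of 6, and neuronal genes for 3, 3, 4 and 3 of 6, with 1 neuronal gene higher in each of the female comparisons. The part of all these cells in the differences of the 9 genes was not tested.

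Other genes listed for the same cells were lower in part. Of all genes, 14.5%, 6.7%, 13.9% and 10.6% were lower in female sham, male sham, female SNI and male SNI pools. Of 15 other contractile genes tested, 1 was lower in the mPFC in each of female sham (Cald1, -0.41), male sham (Tpm2, -0.61) and female SNI pools (Ppp1r14a, -0.71). Each of these counts was no higher than the share over all genes. In male SNI pools 4 were lower. Those 4 were Mcam (-0.43), Tpm2 (-0.59), Myl9 (-0.50) and Ppp1r14a (-0.46). The medians of the list were -0.15, -0.14, -0.04 and -0.27, while those of all genes tested were 0.00 to 0.01. Cald1 and Tpm2 bind actin filaments, and Ppp1r14a keeps myosin phosphorylated. Ppp1r14a passed only in the SNI comparisons, in which most of the listed oligodendrocyte genes were lower as well. Which cells its reads came from was not tested. Of 15 other pericyte genes, 4, 4, 1 and 5 were lower. Abcc9, the regulatory subunit of the potassium channel of pericytes, passed in all 4 comparisons (-0.25, -0.36, -0.33 and -0.43). Anpep and Itga1 passed in both sham comparisons and in male SNI pools. Cspg4, the proteoglycan NG2, which oligodendrocyte precursors also make, was higher in the mPFC in female sham (0.28) and female SNI pools (0.22).

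The regulators of contractile genes did not share one direction. Srf, which encodes serum response factor, was higher in the mPFC in female sham (0.47), female SNI (0.28) and male SNI pools (0.25), and its partner Mrtfa was higher in the same 3 comparisons (0.32, 0.24 and 0.20). Foxc1 (-0.49, -0.70 and -0.50) and Tbx18 (-0.64, -0.61 and -0.65), transcription factors of mural cells, were lower in female sham, male sham and male SNI pools. Myocd, the gene for myocardin, had 3 to 16 reads per library (0.112 to 0.588 CPM). Median levels were 50.8 CPM for Srf and 72.5 CPM for Mrtfa, against 16.2 CPM for Acta2. Among 19 genes of the signals that reach mural cells, 5, 1, 4 and 1 were higher and 3, 3, 1 and 5 lower in the mPFC. Of all genes, 28.5%, 14.2%, 27.6% and 21% passed in either direction, and 14.5%, 6.7%, 13.9% and 10.6% were lower. Angpt1, the angiopoietin that pericytes present to the endothelium, was higher in each comparison (0.66, 0.83, 1.01 and 0.79). Rbpj, the partner of Notch receptors, was lower in each (-0.42, -0.28, -0.29 and -0.19). Which cells of the tissue the reads of these regulators and signals came from was not tested.

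The main question of the study was what SNI changes. None of the 9 genes passed edgeR's test between SNI and sham in any of the 4 comparisons, in which 0.00592% (female mPFC), 0.024% (female ACC), 0.494% (male mPFC) and 0.00599% (male ACC) of all genes passed. At an unadjusted p under 0.05 stood 1, 4, 0 and 0 of the 9, against 12.1%, 6.67%, 11.2% and 4.48% of all genes. DESeq2 called 0, 2, 0 and 0 of the 9, and 13, 37, 283 and 3 of all genes.

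The 4 genes with an unadjusted p under 0.05 in the female ACC were Acta2, Tagln, Des and Vtn. Acta2 read 23.8, 16.3 and 21.0 CPM in sham and 16.4, 13.8 and 14.5 CPM in SNI pools (-0.45 ± 0.12, adjusted p = 0.494). Tagln read 16.3, 10.9 and 14.5 against 11.2, 7.59 and 8.82 CPM (-0.59 ± 0.15, 0.504). The groups overlapped narrowly in both, as the first SNI pool passed the second sham pool. DESeq2 called both genes, with adjusted p-values of 0.0946 for Acta2 and 0.0652 for Tagln. Des read 5.62, 3.86 and 5.19 against 3.94, 2.81 and 3.70 CPM (-0.50 ± 0.18, 0.635), and Vtn 72.1, 55.9 and 65.3 against 55.1, 55.2 and 55.9 CPM (-0.22 ± 0.07, 0.635). The SNI pools of Vtn lay at the level of the lowest sham pool. Myh11 (-0.23 ± 0.11), Cnn1 (-0.13 ± 0.31), Pdgfrb (-0.07 ± 0.07), Notch3 (-0.10 ± 0.06) and Rgs5 (0.06 ± 0.04) had smaller differences for their error or none in that direction.

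These female ACC values turned on single sham pools. Without female sham ACC 2, the lowest sham pool, Acta2 (-0.59, adjusted p = 0.0438), Tagln (-0.74, 0.0614) and Vtn (-0.31, 0.0453) passed. Without female sham ACC 1, the pool with choroid plexus RNA, Acta2 read -0.33, Tagln -0.46, Myh11 -0.13 and Vtn -0.13, and none passed. Fibroblast genes moved with them, since all 14 were below 0 (median -0.49), 12 of 14 had an unadjusted p under 0.05 and Col3a1, a collagen chain, was lower by edgeR's test (-0.99 ± 0.14, adjusted p = 0.0670). Of 15 other contractile genes 12 were below 0 (median -0.19) and of 19 endothelial genes 15 (median -0.06), with none called in either list. The smallest p among the contractile genes belonged to Cald1 (-0.22 ± 0.07, adjusted p = 0.635) and Smtn (-0.30 ± 0.13, 0.721). The median of all genes was 0.00. The part of fibroblasts in the differences of Acta2 and Tagln was not tested.

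**Figure D5:**
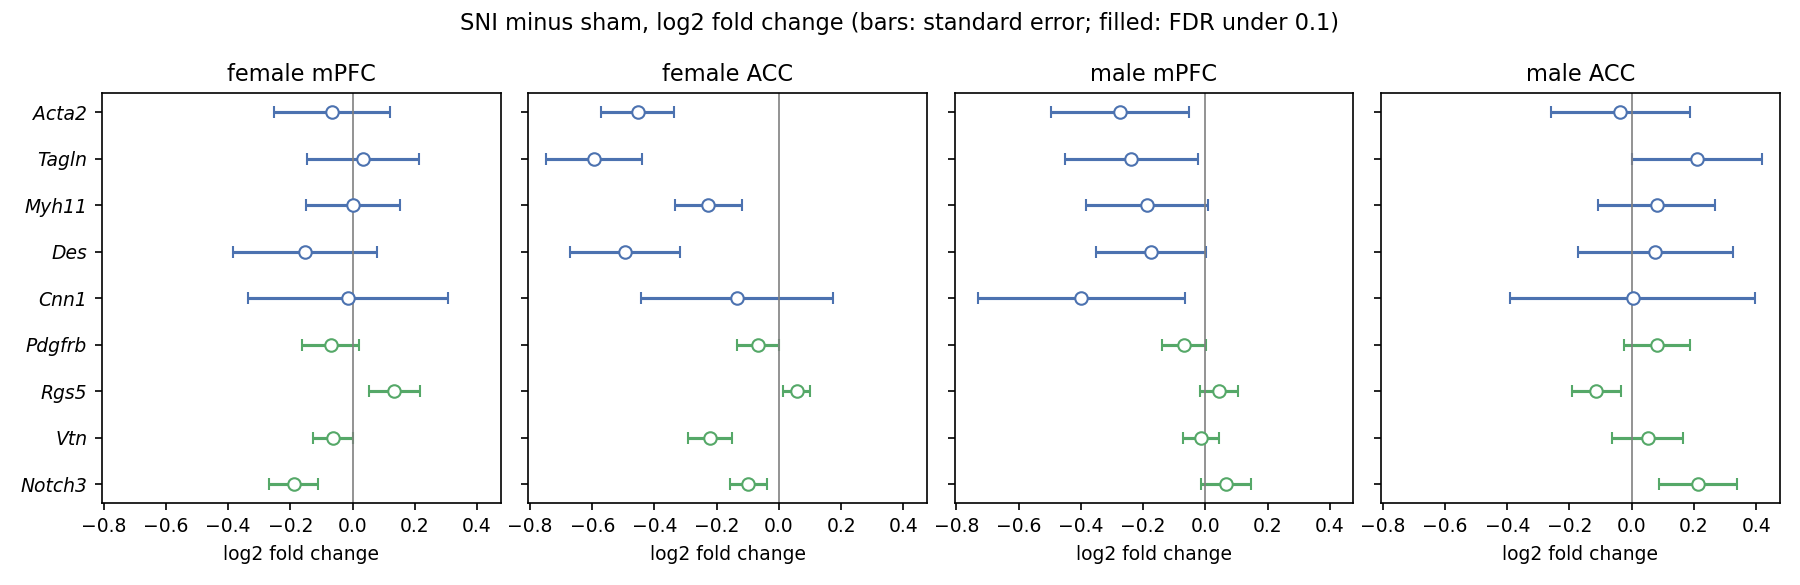
Log2 difference, SNI minus sham, ± SE for each gene in the 4 comparisons; blue smooth muscle and green pericyte genes, filled where the adjusted p was under 0.1. No point is filled, and the differences farthest from 0 are those of Tagln (-0.59), Des (-0.50) and Acta2 (-0.45) in the female ACC.

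In the female mPFC none of the 9 genes passed. Notch3 read 24.1, 27.2 and 24.7 CPM in sham and 22.8, 21.1 and 22.3 CPM in SNI pools (-0.19 ± 0.08, adjusted p = 0.408), and was the 1 gene with an unadjusted p under 0.05. Notch3 and Vtn (-0.06 ± 0.06) had SNI pools below sham pools without overlap, as had 8.74% of genes in that direction. Acta2 read 13.1, 19.5 and 17.6 against 11.2, 15.6 and 20.8 CPM (-0.07 ± 0.19), with the SNI pools spread over the whole range of the sham pools. Tagln (0.03 ± 0.18), Myh11 (0.00 ± 0.15), Cnn1 (-0.02 ± 0.32), Des (-0.15 ± 0.23), Pdgfrb (-0.07 ± 0.09) and Rgs5 (0.13 ± 0.08) stood within 2 SE of 0. Without female SNI mPFC 1, the library low in oligodendrocyte RNA, Acta2 read 0.13, Tagln 0.24, Myh11 0.15, Cnn1 0.22, Des 0.03 and Pdgfrb 0.01, so that the signs of Acta2, Cnn1, Des and Pdgfrb turned, and none passed. Without female sham mPFC 3, Tagln read 0.13, Cnn1 0.17 and Rgs5 0.20, and again none passed.

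In males none of the 9 genes had pools that separated, as 17% of all genes did in the mPFC and 8.17% in the ACC. In the mPFC Acta2 read 21.5, 15.1 and 12 CPM in sham and 11.1, 9.70 and 19.4 CPM in SNI pools (-0.27 ± 0.22, adjusted p = 0.672), with 1 high pool in each group. The other smooth muscle genes stood at -0.17 to -0.40 and the pericyte genes at -0.07 to 0.07, and the smallest adjusted p was that of Acta2. In the ACC Acta2 read 14.9, 16 and 23.5 against 11.7, 21.0 and 20.7 CPM (-0.04 ± 0.22), again with full overlap. Notch3 (0.21 ± 0.12) and Tagln (0.21 ± 0.21) stood highest and Rgs5 (-0.11 ± 0.08) lowest. Without male SNI ACC 1, the library with hepatocyte RNA, Acta2 read 0.20, Tagln 0.39, Myh11 0.29 and Cnn1 0.39, and none passed. Without male sham ACC 3, Acta2 read 0.20 as well, Des 0.44 and Vtn 0.21, and Notch3 (0.40, adjusted p = 0.0307) and Tagln (0.49, 0.0977) passed as higher after SNI. Here too the share of all genes that passed in that fit is not given. In fits over both sexes edgeR and DESeq2 called none of the 9, 0 had an unadjusted p under 0.05, and Acta2 stood at -0.17 in the mPFC and -0.24 ± 0.15 in the ACC.

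Female and male sham pools were compared next. None of the 9 genes passed edgeR's test in the mPFC, where 0.177% of all genes did, or in the ACC, where 0.0958% did, and DESeq2 called 0 in both. In the mPFC all 9 were above 0, female minus male, where 48.1% of all genes were below 0, and 1 had an unadjusted p under 0.05, as had 10.6% of all genes, while 0 had in the ACC. That gene was Notch3, with 24.1, 27.2 and 24.7 CPM in females and 23.2, 19.0 and 19.5 CPM in males (0.30 ± 0.09, adjusted p = 0.326). Its female pools lay above its male pools, as did those of Vtn and of 6.7% of all genes. Without female sham mPFC 3, the library with the most negative GC trend, Notch3 passed (0.31, 0.0559), while Cnn1 (-0.17) and Rgs5 (-0.01) turned below 0 and Tagln read 0.00. In the ACC Des (0.56 ± 0.26, 0.750) and Tagln (0.34 ± 0.20, 0.794) stood farthest from 0. Without male sham ACC 3 they read 0.92 and 0.62 and Acta2 went from 0.16 to 0.40. Without female sham ACC 1 Des read 0.45, Tagln 0.21 and Acta2 0.04, and none of the 9 passed in either fit.

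Whether the response to SNI differed between sexes or regions was tested with interaction terms. None of the 9 genes, and none of the 17289 to 17641 genes tested, passed edgeR's test in any of the 4 interactions. At an unadjusted p under 0.05 stood 1 of the 9 for sex in the mPFC, 2 for sex in the ACC, 1 for region in females and 0 for region in males, against 15.8%, 5.92%, 11.1% and 3.19% of all genes. DESeq2 called 0 of the 9 in each, and 806, 2, 6 and 3 of all genes. The difference of Tagln between female and male responses in the ACC was -0.82 ± 0.30 (adjusted p = 0.753). Without male sham ACC 3 it was -1.08 (0.0406), and Des (-0.94, 0.0673), Vtn (-0.43, 0.0544), Notch3 (-0.50, 0.0268) and Rgs5 (0.23, 0.0892) passed as well. The share of all genes that passed without male sham ACC 3 is not given here, so these calls cannot be read as particular to the 9 genes. For region in females the Tagln term was 0.63 ± 0.28 (0.438), with 0.83 without female SNI mPFC 1 and 0.49 without female sham ACC 1. Of the 12 fits of the ACC interaction that left out a library, the fit without male sham ACC 3 was the 1 in which any of the 9 genes passed.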

How the data were processed

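RNA of 24 pools was sequenced. The authors deposited raw gene counts in 4 tables, 1 for each sex and region. The submitters' processing notes name Trimmomatic 0.36, Bowtie2 2.33, HISAT2 2.1.0, HTSeq 0.9.1, edgeR 3.34.0 and GRCm38. The annotation release and strand setting are not given in the sources used here. Groups came from the sample titles. Symbols were matched through GENCODE vM21, which held 33336 of the 33364 identifiers. The 9 genes and all lists were chosen with earlier results of these data known.

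Counts were tested with edgeR 4.0.16 (R 4.3.3): filterByExpr (count of 10, total of 15), TMM scaling and the quasi-likelihood F-test, fitted over all genes of the groups compared, with Benjamini-Hochberg adjustment and a threshold of 0.1. All 9 genes passed the filter in every comparison. CPM values used TMM factors over 24 libraries, and log2 CPM a prior count of 2. Precision was limited by 3 pools a group, since 3 against 3 allows no exact two-sided p below 0.1. Regions and sexes lay in different tables, so a batch that followed the tables cannot be told apart from them. Replicates differed by more than sampling noise in every group.

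Alternatives were DESeq2 1.42.0, RLE scaling, no or a stricter filter, the newer quasi-likelihood method, 1 model over 24 libraries, a replicate block, a GC trend removed by offsets (added after the data had been seen) and each library left out. For fits that left out a library, the share of all genes that passed is not given. Calls of the 9 genes in those fits cannot be set against it. The tests were tested on simulated data. Besides the 9 genes, the text names list genes with an adjusted p under 0.1 (at most 4 a list by p, or the 2 with the smallest p), and the 5 genes most correlated with Acta2 and with Rgs5. Named outside this rule, after their values were seen, were Myocd, the Myl9 promoter, Abcc9 and Tbx18 in female sham pools, and Anpep and Rbpj in male SNI pools.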

Additional observations from a re-analysis of the deposited data

How the results depend on the processing

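In comparisons with SNI, which called none of the 9 genes, the female ACC gave 2 with DESeq2, 4 without a count filter and 0 to 3 with a library left out. The male mPFC gave 1 without a filter and the male ACC 0 to 2 with a library left out. Between regions, the 4 genes of female sham pools became 2 in a model over 24 libraries, 6 without a filter, 5 after the GC correction and 1 to 4 with a library left out. All genes called there went from 4773 to 5711 in that model, 5008 without a filter and 3847 after the GC correction. The 1 gene of male sham pools became 2 with DESeq2 or the 24-library model, 3 without a filter or after the GC correction, and 1 to 3 with a library left out. Calls over all genes went from 2383 to 2133 with DESeq2, 3540 in the 24-library model, 2801 without a filter and 4141 after GC correction. The 1 gene of female SNI pools became 2 after the GC correction and 1 to 2 with a library left out, and the 7 genes of male SNI pools became 4 with DESeq2, 5 in the 24-library model, 8 without a filter and 4 to 7 with a library left out. Of all genes, 4668 passed in female SNI pools, and 4618 after the GC correction. In male SNI pools 3536 passed, and 2967 with DESeq2, 3372 in the 24-library model and 3985 without a filter. Between sexes, the sham mPFC gave 1 without a filter and 0 to 1 with a library left out. There 30 of all genes passed in the main fit and 459 without a filter. The interaction of sex in the ACC gave 1 without a filter and 0 to 5 with a library left out, and that of region in females 1 without a filter. Calls over all genes without a filter went from 0 to 110 in the former and from 0 to 672 in the latter. The cause of these shifts was not tested. No result changed direction while called. Over all genes, the calls for SNI against sham of 1, 4, 84 and 1 became 641, 398, 596 and 10 without a filter and 13, 37, 283 and 3 with DESeq2. For the interaction of sex in the mPFC, 0 became 883 without a filter and 806 with DESeq2, with none of the 9 genes among them.

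Whether same-numbered mPFC and ACC pools came from the same animals is not given in the sources used here. Same-numbered deviations correlated at -0.24 to 0.28, and in no comparison were all 3 above 0.1. Such correlations cannot show whether pools shared animals. The main fits took all pools as independent, which may not hold between regions. With the replicate block, Tagln passed in the female ACC after SNI (1 of the 9 genes, adjusted p = 0.0704), and 8 genes in place of 7 differed between regions in male SNI pools. Calls over all genes rose as well, from 4 to 11 in the former and from 3536 to 4469 in the latter.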
